A study of Rattus norvegicus with 9 samples.

Results

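The expression of 8 genes of Schwann cells and peripheral myelin, Pmp22, Mbp, Prx, Mag, Mal, Cnp, Sox10 and Ncam1, was examined in dorsal root ganglia (DRGs) of a rat model of complex regional pain. The genes were chosen by symbol, and each matched 1 row among the 20413 genes of the expression table, under the Gene IDs 24660 (Pmp22), 24547 (Mbp), 78960 (Prx), 29409 (Mag), 25263 (Mal), 25275 (Cnp), 29361 (Sox10) and 24586 (Ncam1). Ipsilateral L4-6 DRGs of male Sprague Dawley rats, 8 to 10 weeks old, were collected on day 10 and profiled by RNA-Seq in 3 groups of 3 libraries, each library from a separate animal. CPIP (chronic post-ischemia pain) rats had the blood flow of a hind paw stopped by a tight O-ring at the ankle, followed by reperfusion. CPIP+EA rats had the same injury and 100 Hz electroacupuncture at both hind limbs, daily for 10 days, and Sham rats had the anesthesia, which all groups shared, and a cut O-ring that left the flow open. No group with needles but no current was among the libraries.

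Schwann cells are the glia of peripheral nerves. Those that myelinate wrap 1 axon in a compacted stack of membrane, held together by abundant membrane proteins, peripheral myelin protein 22 among them, and rich in cholesterol and galactolipids. Their myelin genes are switched on by the transcription factors SOX10 and EGR2. After nerve injury, Schwann cells of the damaged nerve lower these genes and take on a repair state led by JUN. A DRG holds the cell bodies of sensory neurons with their satellite glia, but also myelinated stretches of axon and fibroblasts, so a bulk library mixes their RNA, and fewer Schwann cells in a sample cannot be told apart from less RNA per Schwann cell.

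The regulatory stretch before the start site is shown for 4 of the genes, as Pmp22 was the most abundant of the 8, Prx had the lowest level in CPIP+EA relative to CPIP, Mag kept closest to Prx over the libraries and Cnp parted from it. The 250 bases before the annotated start were taken from RefSeq on GRCr8, at chr10:48294682-48294931 on the plus strand (Pmp22), chr1:91914171-91914420 on the plus strand (Prx), chr1:95291045-95291294 on the minus strand (Mag) and chr10:86011254-86011503 on the plus strand (Cnp). They are written 5′ to 3′ along each gene, with matches to the searched motifs in capitals. Such a stretch was at hand for 6 of the 8 genes and not for Sox10 and Ncam1, although the Gene IDs of all 8 were found in RefSeq.
Pmp22: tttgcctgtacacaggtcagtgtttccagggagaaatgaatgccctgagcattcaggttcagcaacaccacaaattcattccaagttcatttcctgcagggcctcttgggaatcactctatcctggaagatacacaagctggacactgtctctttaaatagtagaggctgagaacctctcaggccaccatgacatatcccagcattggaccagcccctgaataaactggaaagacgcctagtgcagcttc
Prx: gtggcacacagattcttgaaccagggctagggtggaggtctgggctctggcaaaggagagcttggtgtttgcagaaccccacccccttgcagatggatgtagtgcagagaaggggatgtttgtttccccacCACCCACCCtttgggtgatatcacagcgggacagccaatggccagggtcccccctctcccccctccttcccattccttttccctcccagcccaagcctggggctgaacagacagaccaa
Mag: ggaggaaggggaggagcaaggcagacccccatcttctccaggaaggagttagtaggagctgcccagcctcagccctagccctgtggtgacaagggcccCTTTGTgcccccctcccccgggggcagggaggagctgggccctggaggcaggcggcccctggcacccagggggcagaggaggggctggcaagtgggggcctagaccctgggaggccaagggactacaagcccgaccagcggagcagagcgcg
Cnp: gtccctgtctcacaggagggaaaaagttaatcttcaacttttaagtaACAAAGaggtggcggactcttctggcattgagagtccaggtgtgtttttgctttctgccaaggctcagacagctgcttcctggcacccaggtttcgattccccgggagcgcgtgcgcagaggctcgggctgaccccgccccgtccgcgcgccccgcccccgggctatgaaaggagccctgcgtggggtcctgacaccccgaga

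The motifs searched on both strands were the SOX cores ACAAAG and ACAATG and the EGR motif GNGTGGGNG. Of 33469 stretches of the same length, 16.3% held ACAAAG, 11.1% held ACAATG and 11.3% held the EGR motif. The Prx stretch held 1 EGR match on the opposite strand, the Mag stretch 1 ACAAAG match on the opposite strand, the Cnp stretch 1 ACAAAG match on the gene's strand and the Pmp22 stretch none. Of the stretches searched and not printed, that of Mal held none, and of the 2 annotated starts of Mbp one had 1 ACAAAG and 2 ACAATG matches and the other none. These matches describe letters, not binding, and binding was not measured.

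Levels were deposited as FPKM, the sequenced fragments of a gene divided by its transcript length and by the mapped total of the library, which allows genes to be compared per length. Averaged over the 9 libraries, Pmp22 was the most abundant at 2291 FPKM, followed by Mbp at 1464, Prx at 191, Mal at 151, Cnp at 137, Sox10 at 43.9, Ncam1 at 36.5 and Mag at 11.9. Pmp22 stood above Mbp, Mbp above Prx, Prx above Mal, Cnp above Sox10 and Ncam1 above Mag in 9 of 9 libraries, while Mal exceeded Cnp in 7 and Sox10 exceeded Ncam1 in 8. Mal and Cnp, and Sox10 and Ncam1, were therefore neighbours whose order changed between libraries. FPKM totals of the libraries ran from 445647 to 482940, and in sum the 8 genes took between 0.547 and 1.22% of the FPKM of a library.

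Pmp22, whose product is a membrane protein of compact peripheral myelin, had 1935, 2346 and 2695 FPKM in the Sham libraries, 3018, 2823 and 1903 for CPIP, then 1343, 1848 and 2706 for CPIP+EA. The groups overlapped, since the third CPIP library lay below every Sham library and the third CPIP+EA library above every Sham library. Mbp, which codes for the basic protein that zips the cytoplasmic faces of myelin together, had 1061, 1580 and 2131 FPKM in Sham, 1945, 1827 and 1092 among CPIP libraries, against 744, 1183 and 1612 in CPIP+EA. Its highest and lowest libraries differed 2.86-fold, the widest range of the 8 genes, and the Sham libraries alone differed 2.01-fold.

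Prx codes for periaxin, which links the outer Schwann cell membrane of a myelinated fibre to its surroundings. It had 176, 207 and 243 FPKM in Sham, 254, 242 and 159 under CPIP, against 110, 137 and 194 with CPIP+EA. The first and second CPIP+EA libraries lay below all Sham and CPIP libraries, and the third lay within both groups. Mag, the gene of the myelin-associated glycoprotein of the membrane that faces the axon, had 10.2, 13.2 and 15.9 FPKM in Sham, 16.8, 14.9 and 7.81 for CPIP, then 6.66, 8.55 and 13.2 for CPIP+EA. Here too the third CPIP library was the lowest of its group, lower than every Sham library. Mal, whose product sorts lipid-rich membrane to myelin, had 130, 182 and 169 FPKM in Sham, 187, 176 and 125 among CPIP libraries, against 79.0, 125 and 189 in CPIP+EA. CPIP+EA held both the lowest and the highest library of Mal.

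Cnp codes for an enzyme of the uncompacted myelin cytoplasm, 2',3'-cyclic nucleotide phosphodiesterase. It had 117, 129 and 147 FPKM in Sham, 143, 158 and 117 under CPIP, against 106, 144 and 171 with CPIP+EA, a 1.61-fold range in which the third CPIP+EA library was the highest of all. Sox10, the transcription factor that all Schwann cells and satellite glia need, had 42.4, 44.0 and 44.8 FPKM in Sham, 42.9, 51.8 and 45.2 for CPIP, then 40.5, 40.5 and 43.4 for CPIP+EA. Its libraries differed 1.28-fold at most. Ncam1, a neural cell adhesion molecule found on sensory neurons and on Schwann cells that do not myelinate, had 40.4, 34.9 and 32.8 FPKM in Sham, 34.3, 38.1 and 35.8 among CPIP libraries, against 42.5, 36.0 and 33.4 in CPIP+EA. Its highest value fell in the first CPIP+EA library, where Pmp22, Mbp, Prx, Mag, Mal and Cnp were at their lowest.

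**Figure D1:**
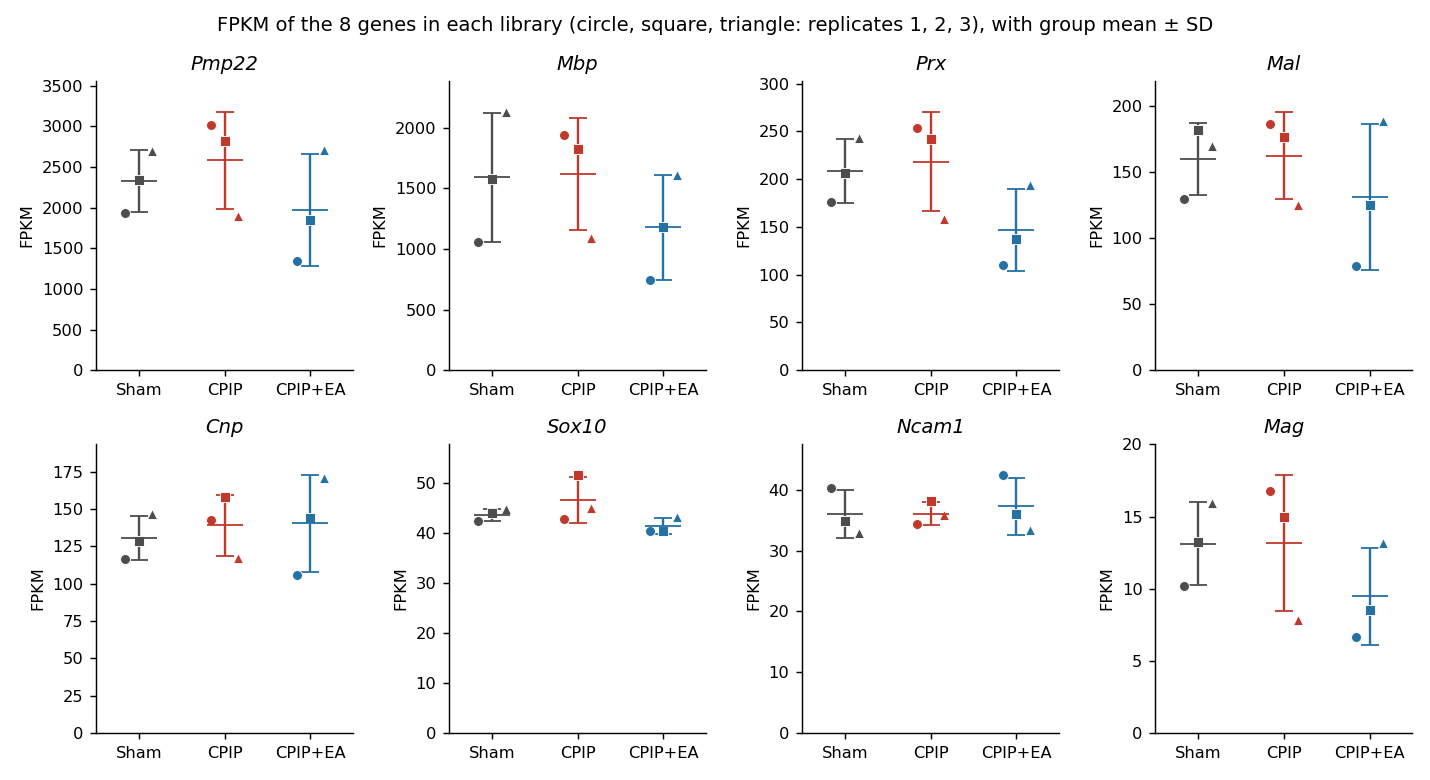
FPKM (vertical axis, from 0) of each of the 8 genes in the Sham, CPIP and CPIP+EA groups, with a circle, square and triangle for replicates 1, 2 and 3, and a bar with whiskers for the mean ± SD of the 3 libraries. The groups overlap in every panel, and the third CPIP library and the first CPIP+EA library are low in the panels of Pmp22, Mbp, Prx, Mal and Mag.

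CPIP was compared with Sham to ask whether the injury altered these genes in the DRG. Log2(FPKM + 0.5) was tested with limma over the 17187 genes whose FPKM averaged 0.1 or more, as all 8 genes did, and a gene was called at a Benjamini-Hochberg adjusted p under 0.01 with at least a 1.5-fold change. None of the 8 genes passed that threshold, where 0.355% of all genes tested did (61 genes, 59 of them higher), and for none did the libraries of the groups part without overlap, where 15.9% of all genes did. At an unadjusted p under 0.05, 0 of the 8 genes stood against 8.66% of all genes. Their log2 fold changes lay between -0.04 (Mag) and 0.14 (Pmp22), with a median of 0.04 where the median of all genes was -0.01, and limma's lowest adjusted p was 0.876 (Sox10). Mean levels were 2325 ± 380 (SD, n = 3) FPKM in Sham and 2582 ± 596 in CPIP for Pmp22, 1591 ± 535 and 1621 ± 462 for Mbp, and 208 ± 33.5 and 218 ± 51.9 for Prx. The 95% confidence interval of the fold was 0.594 to 1.78 for Mbp, so that neither a 1.5-fold loss nor a 1.5-fold gain lay outside it, but 0.946 to 1.19 for Sox10 and 0.855 to 1.18 for Ncam1.

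The same libraries carried a large injury response. All 8 axon injury markers were called higher in CPIP, beside 0.355% of all genes called. Their list was chosen with earlier results of these data known. Among them, the transcription factor Atf3 rose by 3.21 on the log2 scale (limma adjusted p = 1.2e-05). Sham had 4.77, 6.86 and 5.37 FPKM of Atf3, CPIP 55.9, 50.5 and 61.6, and CPIP+EA 72.9, 74.9 and 57.4.

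CPIP+EA was compared with CPIP to ask whether electroacupuncture altered the genes in injured animals, with the CPIP libraries of the comparison with Sham. Of all genes tested, limma called 0, or 0.0%, and 738 genes (4.29%) had an unadjusted p under 0.05, among them 1 of the 8. That gene was Prx, at 147 ± 42.8 FPKM in CPIP+EA and 218 ± 51.9 in CPIP (SD, 3 libraries each). Its log2 fold change of -0.58 (SE 0.24) did not pass the correction (limma adjusted p = 0.996). The groups overlapped for all 8 genes, where 8.23% of all genes did not overlap. Log2 fold changes were -0.48 (SE 0.35) for Mbp, -0.44 (SE 0.31) for Mag, -0.42 (SE 0.28) for Pmp22, -0.38 (SE 0.29) for Mal and -0.16 (SE 0.07) for Sox10. Cnp, at 139 ± 20.6 FPKM in CPIP and 140 ± 32.7 in CPIP+EA, had a fold of 0.998 with a 95% interval of 0.758 to 1.31, and Ncam1 a fold of 1.03 with an interval of 0.875 to 1.21. The median of the 8 genes was -0.40, beside 0.01 for all genes. It was -0.16 without the first CPIP+EA library, -0.25 without the first CPIP library and -0.68 without the third CPIP+EA library. Prx alone had -0.39 without the first CPIP+EA library (limma adjusted p = 0.796) and -0.79 without the third CPIP library (limma adjusted p = 0.796).

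CPIP+EA was also set against Sham, a comparison that shares its libraries with both others. None of the 8 genes was called, beside 0.483% of all genes (83 genes), and 0 of them had an unadjusted p under 0.05, beside 12.2%. The groups overlapped for each of the 8, where 16.2% of all genes did not overlap. Log2 fold changes were -0.53 (SE 0.24) for Prx, -0.48 (SE 0.31) for Mag, -0.44 (SE 0.35) for Mbp, -0.36 (SE 0.29) for Mal, -0.29 (SE 0.28) for Pmp22, -0.08 (SE 0.07) for Sox10, 0.08 (SE 0.18) for Cnp and 0.05 (SE 0.10) for Ncam1. Their median was -0.33 with all libraries, -0.05 without the first CPIP+EA library, -0.19 without the third Sham library and -0.61 without the third CPIP+EA library.

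What set these genes apart in the data was their spread between animals of the same group. Among the 7276 genes with a mean of at least 10 FPKM, the within-group SD of log2 values stood at the 98.5th percentile for Mbp (SD 0.509), the 98.2th for Mag, the 98.0th for Mal, the 97.4th for Pmp22, the 96.7th for Prx and the 93.6th for Cnp. Ncam1 stood at the 70.4th percentile and Sox10 at the 33.9th (SD 0.0892). Sox10 varied 1.28-fold over the 9 libraries while Pmp22, Mbp, Prx, Mag and Mal varied between 2.25- and 2.86-fold. The partner factor Egr2, singled out once values were known, had 8.08, 15.6 and 12.8 FPKM in Sham, 24.7, 21.5 and 8.87 under CPIP, against 9.71, 9.93 and 11.2 with CPIP+EA. Within CPIP it was high in the first and second libraries and low in the third, as the myelin genes were, but within CPIP+EA it varied little where they did, and its r with the members' profile was 0.735.

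The myelin genes varied together. Over the 9 libraries, Pmp22, Mbp, Prx, Mag and Mal had Pearson correlations between 0.911 and 0.966 in their 10 pairs, and between 0.89 and 0.991 within groups, after the group means were removed. By Pearson r over the 9 libraries, Prx and Mag were the closest pair (r = 0.966, Spearman's rho = 0.983) and Prx and Mal the least close (r = 0.911, rho = 0.75). By rho, Mbp and Mal were the least close (0.7). Within groups, Pmp22 and Prx were the closest (r = 0.991) and Mag and Mal the least close (r = 0.89). Cnp followed the 5 genes within groups (r between 0.892 and 0.953) more closely than over all libraries (r between 0.624 and 0.8). Sox10 had r between 0.415 and 0.633 with the other genes of the set except Ncam1. Ncam1 ran opposite to the myelin genes, with r between -0.782 and -0.62 and with -0.15 for Sox10. These values describe 9 libraries whose FPKM share 1 total each, so that a gene taking more of the total leaves less to others. Whether this shaped the correlations was not tested. In sum the genes of the set took between 0.547 and 1.22% of the FPKM of a library, and Ncam1 varied 1.29-fold over the libraries.

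**Figure D2:**
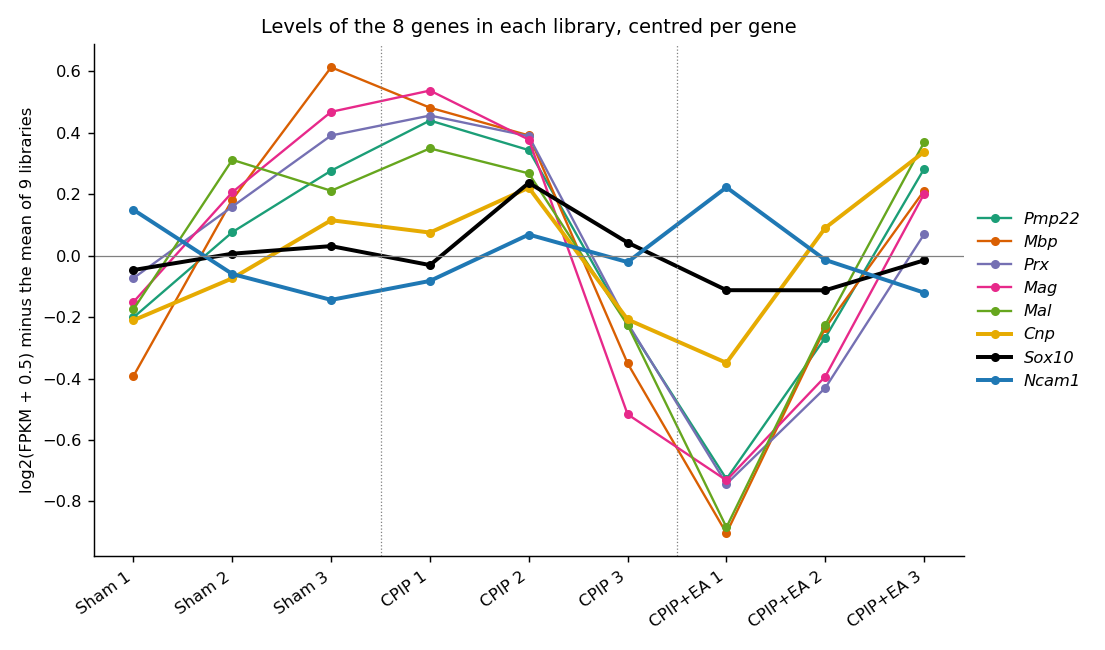
Log2(FPKM + 0.5) of the 8 genes, minus each gene's mean over 9 libraries, for each library on the horizontal axis; lines join the values of a gene and stand for no order of the animals. Pmp22, Mbp, Prx, Mag and Mal move together and are at their lowest in the first CPIP+EA library, while Sox10 stays near 0 and Ncam1 is highest there.

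The mean profile of the 8 genes without Ncam1 was compared with all 13914 genes of at least 1 FPKM on average. Of these, 133 (0.956%) had r of at least 0.9 with it and 20 had r of at most -0.9. The 133 include 5 of the genes that make up the profile. Outside the lists examined, the most alike were Lims2, an adaptor of integrin adhesions (r = 0.989), Bcas1, a gene of myelinating glia (0.986), Gatm, the first enzyme of creatine synthesis (0.984), and Mrgprf, an orphan receptor (0.980). Lims2 had 29.3, 34.0 and 38.9 FPKM in Sham, 39.3, 38.9 and 28.6 for CPIP, then 21.6, 28.4 and 39.0 for CPIP+EA, with the third CPIP and first CPIP+EA libraries low as for the myelin genes. Among myelin genes that were not in the set, Cldn19, a tight junction gene of Schwann cells, had r = 0.980, and Ugt8, the enzyme that makes galactocerebroside, 0.978.

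Because the animals differed so widely in all myelin genes at once, the fit was repeated, after the data had been seen, with the mean log2 level of 3 other myelin genes (Cldn19, Pllp and Ncmap) as a covariate. The covariate asks how a gene stood relative to those myelin genes in its library, and its intervals say nothing of a change shared with them. Cldn19, Pllp and Ncmap had r of 0.980, 0.962 and 0.957 with the members' profile in these same libraries, so a smaller SE followed from their choice. The SE of Mbp between CPIP and Sham went from 0.35 to 0.09 on the log2 scale, and that of Prx from 0.24 to 0.07. None of the 8 genes was called in any comparison, beside 0.401, 0.0 and 0.512% of all genes in CPIP vs Sham, CPIP+EA vs CPIP and CPIP+EA vs Sham. In CPIP vs Sham 0 of the 8 had an unadjusted p under 0.05, beside 10.5% of all genes. With the covariate, Prx in CPIP+EA vs CPIP had a log2 fold change of -0.29 (SE 0.07, limma adjusted p = 0.489) and Cnp 0.21 (SE 0.07, adjusted p = 0.533). Both had an unadjusted p under 0.05, as did 8.22% of all genes. Against Sham, Prx had -0.32 (limma adjusted p = 0.0626) and Cnp 0.23 (adjusted p = 0.126), both at an unadjusted p under 0.05, as were 15.6% of all genes. The other 6 genes had an unadjusted limma p above 0.05 in all 3 comparisons. Pmp22 in CPIP+EA vs CPIP, for instance, went from a fold of 0.746 with an interval of 0.484 to 1.15 to a fold of 0.930 with an interval of 0.782 to 1.11.

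**Figure D3:**
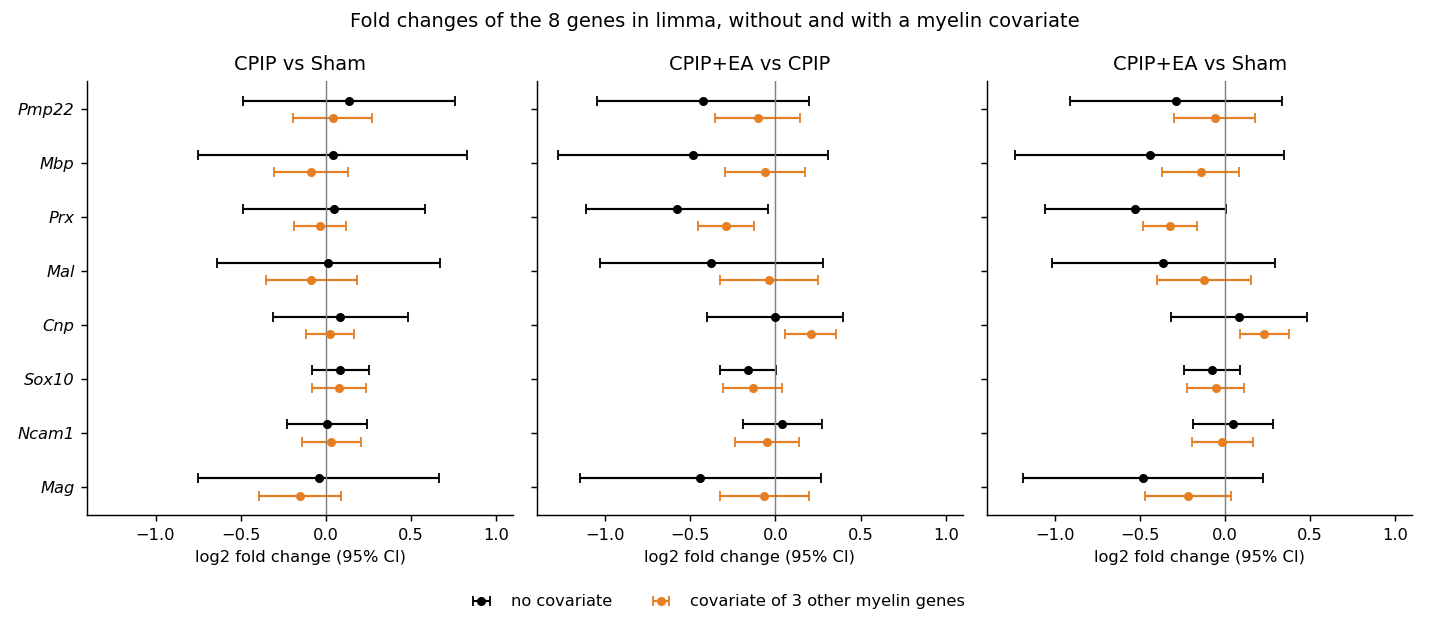
Log2 fold changes with 95% confidence intervals from limma (horizontal axes) of the 8 genes in the 3 comparisons, without a covariate (black) and with the mean level of 3 other myelin genes as covariate (orange). The intervals narrow for the myelin genes, and with the covariate those of Prx (below 0) and Cnp (above 0) exclude 0 in both comparisons of CPIP+EA, although neither passes the correction over all genes.

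Ratios within a library were computed for 5 pairs chosen after the values were seen, need no model and were not tested. The level of Cnp was 0.665, 0.622 and 0.604 of that of Prx in Sham, 0.562, 0.651 and 0.738 among CPIP libraries, against 0.963, 1.05 and 0.882 in CPIP+EA. The CPIP+EA libraries lay above all others, as they did for the ratio to Prx of 12.3% of all genes against CPIP and 30.0% against Sham. Prx to Pmp22 was 0.0908, 0.0881 and 0.0900 in Sham, 0.0841, 0.0858 and 0.0834 under CPIP, against 0.0820, 0.0741 and 0.0717 with CPIP+EA. Each group lay below the one before without overlap, and of all genes the ratio to Pmp22 was lower without overlap for 2.35% in CPIP vs Sham, 0.209% in CPIP+EA vs CPIP and 0.489% in CPIP+EA vs Sham. Mal to Pmp22, by contrast, was 0.0670, 0.0775 and 0.0629 in Sham, 0.0618, 0.0624 and 0.0657 for CPIP, then 0.0588, 0.0677 and 0.0699 for CPIP+EA, with all groups overlapping. The groups also overlapped in every comparison for Mbp to Pmp22 and for Mag to Mbp.

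**Figure D4:**
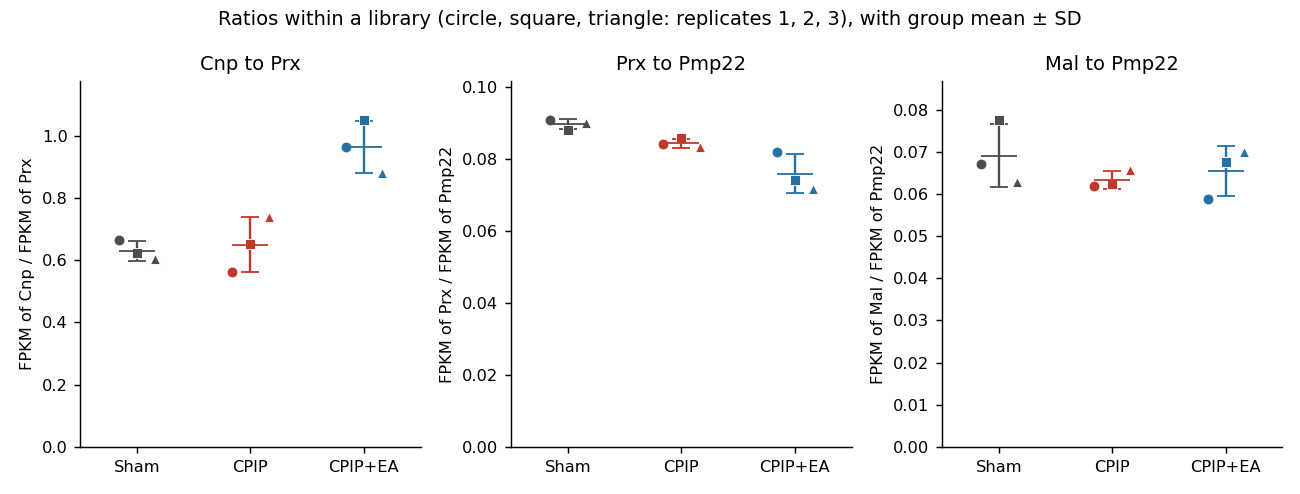
Ratios of FPKM within a library (vertical axes, from 0) for Cnp to Prx, Prx to Pmp22 and Mal to Pmp22, with a circle, square and triangle for replicates 1, 2 and 3 and a bar with whiskers for the mean ± SD. Cnp to Prx is above 0.88 in every CPIP+EA library and below 0.74 in all others, Prx to Pmp22 steps down from Sham to CPIP to CPIP+EA, and Mal to Pmp22 overlaps.

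Other genes of the same biology were taken from 6 lists with 94 distinct genes outside the set, of which 93 were tested. In CPIP vs Sham, 2 of them were called higher and none lower, in CPIP+EA vs CPIP none, and in CPIP+EA vs Sham 2 higher and none lower. Of all genes tested, 0.355, 0.0 and 0.483% were called in these comparisons. The median log2 fold change of the 93 was 0.02, -0.07 and -0.07 in these comparisons. Both called genes were in the list of repair Schwann cell genes, and both are also injury genes of sensory neurons, and their source in a bulk DRG was not tested. Gap43, which codes for a growth cone protein, had 136, 125 and 139 FPKM in Sham, 287, 270 and 336 among CPIP libraries, against 331, 355 and 269 in CPIP+EA, and rose by 1.15 (log2) in CPIP over Sham (limma adjusted p = 0.00224, between 0.000837 and 0.0182 over the alternatives). Jun, the transcription factor of the repair state, had 25.8, 24.0 and 19.8 FPKM in Sham, 42.4, 39.5 and 43.8 under CPIP, against 49.0, 40.2 and 41.7 with CPIP+EA, and rose by 0.85 (limma adjusted p = 0.00694, between 0.00125 and 0.0423 over the alternatives). Against Sham, Gap43 was 1.24 (limma adjusted p = 0.0011, between 0.000596 and 0.0109 over the alternatives) and Jun 0.90 (adjusted p = 0.00416, between 0.00203 and 0.0263) higher in CPIP+EA on the log2 scale. With the replicate number as a block, neither gene was called in either comparison with Sham. With 1 library left out, the CPIP vs Sham call of Gap43 was lost without any of the Sham libraries, the first CPIP library or the third CPIP library, and that of Jun without any library but the first CPIP+EA library. In CPIP+EA vs Sham, Gap43 was called whichever library was left out, and Jun was called without the first Sham or the third CPIP library and lost without any of the other 7. The other 17 repair genes tested were not called, and 4 genes of that list stayed under 1 FPKM in all libraries.

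The list of other compact myelin and Schwann membrane genes (18 genes, all tested) had 0 called in each comparison, with medians of 0.07, -0.11 and -0.09. Tspan2, a tetraspanin of myelinating glia, had 16.3, 16.5 and 18.1 FPKM in Sham and 20.1, 19.7 and 22.0 in CPIP, without overlap and short of the threshold (limma adjusted p = 0.312). Cdh1, the E-cadherin of the uncompacted membrane, had 63.6, 65.5 and 59.8 FPKM for CPIP, then 57.8, 57.0 and 56.6 for CPIP+EA (limma adjusted p = 0.996). The 12 node and paranode genes had 0 called, with medians of -0.04, -0.15 and -0.20. Of these Cntnap2, an axonal membrane protein beside the paranode, had 24.2, 23.1 and 21.9 FPKM in Sham and 19.6, 18.3 and 18.8 in CPIP (limma adjusted p = 0.536). Cadm3, an axonal adhesion molecule and the most abundant of the list, had a mean of 255 FPKM.

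The 18 Schwann transcription factors and axonal signals had 0 called, with medians of -0.01, -0.11 and -0.15. Nrg1, which codes for the axonal growth factor that sets myelin thickness, had 50.5, 41.6 and 41.0 FPKM in Sham, 34.3, 34.1 and 34.4 among CPIP libraries, against 39.9, 32.5 and 30.9 in CPIP+EA. Its CPIP libraries lay below all Sham libraries, with a log2 fold change of -0.36 (SE 0.11) that was not called (limma adjusted p = 0.279). Nfatc4, a factor that works with SOX10, had 2.27, 2.52 and 2.30 FPKM under CPIP, against 2.18, 2.02 and 1.98 with CPIP+EA (limma adjusted p = 0.996), and Itgb4, a laminin receptor subunit and the most abundant of the list, a mean of 123 FPKM. The 20 enzymes and regulators of myelin lipids had 0 called, with medians of 0.06, -0.06 and 0.00. Fasn, the fatty acid synthase, had 43.7, 41.3 and 45.5 FPKM among CPIP libraries, against 40.4, 34.4 and 33.1 in CPIP+EA (limma adjusted p = 0.996), and Hmgcs1, an early enzyme of cholesterol synthesis and the most abundant of the list, a mean of 309 FPKM. The 10 genes of non-myelinating Schwann cells had 0 called, with medians of -0.06, 0.05 and 0.10. Chl1, an adhesion molecule that injured neurons share, had 24.6, 30.2 and 26.9 FPKM in Sham and 43.9, 36.5 and 44.7 in CPIP (limma adjusted p = 0.0528), and Apod, a lipid carrier and the most abundant of the list, a mean of 1282 FPKM.

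**Figure D5:**
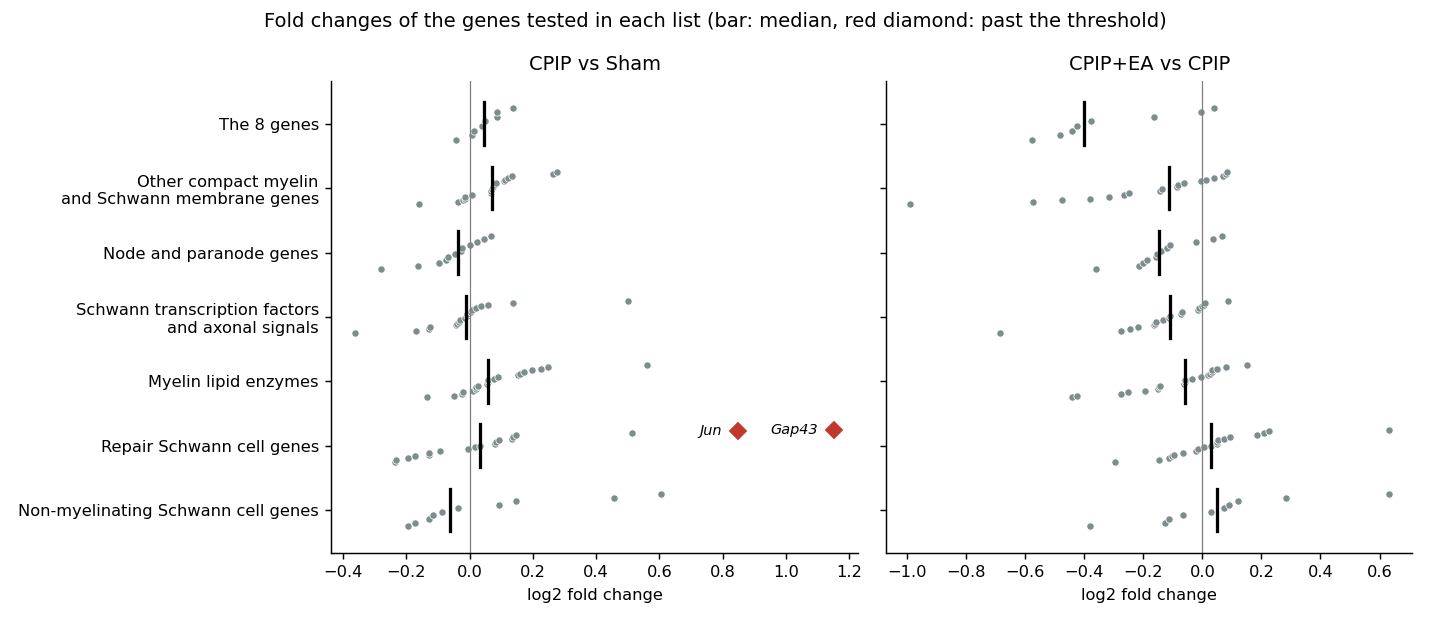
Log2 fold change (horizontal axes) of each gene tested in the set of 8 and in the 6 lists, with a black bar for the median of a list and red diamonds for the genes past the threshold. The panels show CPIP vs Sham and CPIP+EA vs CPIP, and CPIP+EA vs Sham is not plotted. Jun and Gap43 are the diamonds, both in CPIP vs Sham, and the median of the 8 genes in CPIP+EA vs CPIP lies at -0.40.

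Markers of the other cells of a ganglion were read beside these values, and their part in the results was not tested. The FPKM of the 12 sensory neuron markers summed to between 10650 and 13300 in a library and that of the 10 satellite glia markers to between 3798 and 4408, with Nefl and Apoe as their most abundant genes (means of 2670 and 3693 FPKM). Of oligodendrocytes, the myelinating glia of the central nervous system, 5 of 12 markers (Olig2, Opalin, Nkx2-2, Nkx6-2 and Klk6) were under 0.1 FPKM on average and not tested, Mobp reached 0.45 FPKM at most and Mog 3.12. Their most abundant marker was Cldn11, at a mean of 14.5 FPKM. Along the members' profile, the mean level of the marker lists had r of 0.198 for oligodendrocytes, 0.349 for satellite glia, -0.611 for sensory neurons, 0.67 for fibroblasts and meninges, 0.1 for macrophages, 0.61 for neutrophils and blood cells, 0.46 for skeletal muscle and -0.246 for axon injury. The 10 fibroblast and meningeal markers summed to between 1583 and 2053 FPKM in Sham, 1646 and 1788 in CPIP, and 914 to 1687 under CPIP+EA, Ptgds being the most abundant at a mean of 583 FPKM. None of the 10 was called, and their median log2 fold change was -0.32 in CPIP+EA vs CPIP, with 10 of 10 below 0, where that of the 8 genes was -0.40. In CPIP+EA vs Sham it was -0.50, with 9 of 10 below 0, where that of the 8 genes was -0.33. Of the 10 markers, 6 had an unadjusted limma p under 0.05 in that comparison, beside 12.2% of all genes and 0 of the 8. The 9 neutrophil and blood markers, led by the hemoglobin gene Hba1 (mean 1121 FPKM), summed to between 1121 and 3434 FPKM in Sham, 592 and 2380 in CPIP, and 685 and 5580 with CPIP+EA. Their median log2 fold change was 0.07 in CPIP vs Sham, with 5 of 9 above 0, and 0.76 in CPIP+EA vs CPIP, with 9 of 9 above 0. None had an unadjusted limma p under 0.05 in either comparison, beside 8.66 and 4.29% of all genes. The 10 macrophage markers, led by Cd74 (mean 120 FPKM), summed to between 178 and 346 FPKM and the 8 muscle markers, led by Acta1 (mean 11.2 FPKM), to between 8.42 and 157. The muscle markers had a median log2 fold change of 1.22 in CPIP vs Sham, with 8 of 8 above 0, and -0.13 in CPIP+EA vs CPIP, with 2 of 8 above 0. None of the 8 muscle markers had an unadjusted limma p under 0.05 in either comparison. Of these lists only that of axon injury had genes called, all 8 in CPIP vs Sham and all 8 in CPIP+EA vs Sham. Of all genes, 0.355 and 0.483% were called in these comparisons. Npy was the most abundant axon injury marker at a mean of 260 FPKM.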

How the data were processed

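RNA-Seq of L4-6 DRGs was analysed for 3 libraries each of Sham, CPIP and CPIP+EA, grouped by the sample labels. The authors filtered reads with SOAPnuke and deposited an FPKM value for each gene in each library; the aligner and genome build are not given in the sources used here. The authors also deposited log2 ratios, P-values and Q-values (p-values) for their own comparisons, which were not used. The table holds no counts, the counting error of a value is not known, and precision rests on the number of libraries.

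Log2(FPKM + 0.5) was fitted by limma (version 3.58.1, R version 4.3.3, with lmFit, contrasts.fit and a trended eBayes, two-sided) over all 9 libraries, for the 17187 genes whose FPKM averaged 0.1 or more, and p-values were adjusted by the Benjamini-Hochberg method. The script was tested on simulated data. A gene was called at an adjusted p under 0.01 and a fold of at least 1.5 or at most 0.667. Tables and figures were made with Python 3.11.15, numpy 2.4.6, pandas 2.3.3, scipy 1.17.1 and matplotlib 3.10.9.

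The members, the 6 lists of related genes and the 8 marker lists were chosen with earlier results of these data known. Of the related lists, the genes called, the gene with the largest change in each direction without overlap in CPIP vs Sham and in CPIP+EA vs CPIP, and the most abundant gene are named. Of the marker lists, up to 3 called genes and the most abundant are named, and of all other genes those most correlated with the members' profile. Some genes that this rule names are not reported here. Other genes were named after their values were seen. Results were recomputed with pseudocounts of 0.1 and 1, all genes kept, a minimum average of 1 FPKM, TPM scaling, quantile normalization, median centring, no trend, the replicate number as a block, only the 2 groups compared, an adjusted p under 0.05 with no minimum fold, each library left out and, chosen after seeing the data, the myelin covariate.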

Additional observations from a re-analysis of the deposited data

How the results depend on the processing

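None of the 8 genes passed the threshold in any of 3 comparisons under the 20 alternatives, of which some (the filters, no trend, the replicate block, only the 2 groups compared, a library of the third group left out) cannot move a log2 fold change. Of the 288 log2 fold changes that did move, 257 kept their direction and 31 changed sign, none of them called. Log2 fold changes near 0 turned with single settings. In CPIP vs Sham, quantile normalization gave -0.0069 for Mal and TPM scaling -0.0033 for Ncam1, and the covariate of 3 other myelin genes gave -0.085 for Mbp, -0.035 for Prx and -0.086 for Mal. In CPIP+EA vs CPIP, median centring gave 0.0084 for Cnp, and the covariate gave 0.21 for Cnp and -0.050 for Ncam1, with a median of the 8 genes of -0.062. In CPIP+EA vs Sham the covariate gave -0.017 for Ncam1. With each library left out in turn, the log2 fold change in CPIP vs Sham ranged from -0.22 to 0.30 for Mbp, -0.075 to 0.26 for Prx, -0.24 to 0.28 for Mag, -0.13 to 0.19 for Mal, -0.010 to 0.20 for Cnp and -0.056 to 0.090 for Ncam1. For Pmp22 and Sox10 it stayed above 0, from 0.0086 to 0.34 and from 0.0090 to 0.14. In CPIP+EA vs CPIP it ranged from -0.16 to 0.18 for Cnp, -0.056 to 0.12 for Ncam1, -0.68 to -0.18 for Pmp22, -0.75 to -0.19 for Mbp, -0.80 to -0.39 for Prx, -0.77 to -0.23 for Mag, -0.69 to -0.059 for Mal and -0.22 to -0.086 for Sox10. In CPIP+EA vs Sham it ranged from -0.073 to 0.27 for Cnp, -0.049 to 0.13 for Ncam1, -0.55 to -0.043 for Pmp22, -0.71 to -0.15 for Mbp, -0.75 to -0.34 for Prx, -0.74 to -0.27 for Mag, -0.67 to -0.045 for Mal and -0.11 to -0.060 for Sox10.

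The replicate numbers did not pair the libraries: the 9 correlations between same-numbered libraries lay between -0.236 and 0.297. With the replicate block, calls numbered 26 genes in CPIP vs Sham, 0 in CPIP+EA vs CPIP and 42 in CPIP+EA vs Sham, with 0 related genes and 0 of the 8 genes called. With each library left out, 30 to 62 genes were called in CPIP vs Sham, 0 to 2 in CPIP+EA vs CPIP and 35 to 82 in CPIP+EA vs Sham, and 0 to 2, 0 and 1 to 2 of the related genes. At an adjusted p under 0.05 with no minimum fold, limma called 122, 0 and 226 genes, 4 and 6 of them related genes in the comparisons with Sham. A fit of only the 2 groups compared called 1 gene in CPIP+EA vs CPIP and 46 in CPIP+EA vs Sham, with 1 related gene in each comparison with Sham. No filter, TPM scaling, median centring or no trend left 1 related gene in CPIP vs Sham, and TPM scaling 1 in CPIP+EA vs Sham. The cause of these shifts was not tested. The largest shift of the median of all genes under a scaling was 0.03 (log2). For Mbp in CPIP vs Sham, the 95% interval of the fold held 1.5-fold changes in both directions.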
